A study of Saccharomyces cerevisiae with 2 samples.

Results

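The genes described here are the rows of the deposited table whose identifier starts with snR, 81 of 7163 features. Of these, 76 were small nucleolar RNAs (snoRNAs), 47 of box C/D and 29 of box H/ACA type by the known class of the named RNA, and all 76 carried the snoRNA biotype in the R64 annotation. The other 5 rows are spliceosomal RNAs that share the prefix: snR19 (U1), snR14 (U4), snR6 (U6) and the long and short forms of U5, snR7-L and snR7-S. RNA was sequenced from the Saccharomyces cerevisiae (budding yeast) strains MF02, labelled wild type, and UV02_HG, which the series title describes as tolerant of high glucose. The labels do not say which alleles UV02_HG carries. Both strains grew in 40% (w/v) glucose and were collected in mid-exponential phase, so no group at lower glucose enters any comparison. There was 1 sample per strain with 2 columns of values each; the series design states that sequencing was done in duplicate, and the labels leave unsaid if these columns are separate cultures or technical repeats. No test across samples was made, and values are given by column, with a range over the 4 ways of pairing UV02_HG and MF02 columns, or as a ratio of the column means.

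A snoRNA is a short stable RNA of the nucleolus that base-pairs with ribosomal RNA and brings a protein complex to it. Box C/D snoRNAs carry the box C and box D motifs, bind the methyltransferase Nop1 with Nop56, Nop58 and Snu13, and mostly guide methylation of ribose. Box H/ACA snoRNAs bind the pseudouridine synthase Cbf5 with Nhp2, Nop10 and Gar1 and mostly guide the isomerisation of uridine, while a few snoRNAs are needed for cleavage of the precursor ribosomal RNA. In yeast most are transcribed from their own promoters, some are cut from a shared polycistronic precursor, and a few are released from the introns of protein-coding genes.

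The sequences showed the marks of the classes in part. Within the first 40 nt, the box C letters TGATGA occurred in 37 of 47 box C/D and 1 of 29 box H/ACA genes. Within the last 14 nt, the box D letters CTGA occurred in 45 of 47 box C/D and 1 of 29 box H/ACA genes. The letters ACA lay within the last 9 nt of 18 of 29 box H/ACA genes and of 6 of 47 box C/D genes. They lay exactly 3 nt before the end in 14 box H/ACA and 3 box C/D genes, and box H was not searched. These are matches of letters, and a gene without one may carry a variant box or another annotated end. The 8 sequences below are RefSeq R64 gene sequences, given 5′ to 3′, and were chosen because the results turn on them: the pair from one precursor that stood farthest apart (snR67 and snR53, chromosome V), other box C/D members with high ratios between strains (snR40, chromosome XIV, and snR13, chromosome IV), intronic members with a high and a low ratio (snR54, chromosome XIII, and snR18, chromosome I), and the box H/ACA members with the highest ratio and the highest level (snR49, chromosome XIV, and snR31, chromosome XV). Capitals mark box C and box D in box C/D genes and the ACA in box H/ACA genes.
snR67: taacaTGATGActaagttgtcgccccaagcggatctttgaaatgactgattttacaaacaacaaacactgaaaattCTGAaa
snR53: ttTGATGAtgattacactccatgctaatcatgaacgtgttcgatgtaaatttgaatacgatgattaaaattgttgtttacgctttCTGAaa
snR40: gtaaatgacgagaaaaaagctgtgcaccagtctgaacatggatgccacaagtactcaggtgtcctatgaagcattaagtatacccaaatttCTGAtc
snR13: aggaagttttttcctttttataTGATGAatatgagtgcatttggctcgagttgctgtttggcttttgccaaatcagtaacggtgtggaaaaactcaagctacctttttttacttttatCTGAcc
snR54: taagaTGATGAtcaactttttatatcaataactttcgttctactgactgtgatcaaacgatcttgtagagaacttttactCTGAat
snR18: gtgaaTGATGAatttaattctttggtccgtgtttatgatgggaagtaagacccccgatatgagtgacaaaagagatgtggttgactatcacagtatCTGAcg
snR49: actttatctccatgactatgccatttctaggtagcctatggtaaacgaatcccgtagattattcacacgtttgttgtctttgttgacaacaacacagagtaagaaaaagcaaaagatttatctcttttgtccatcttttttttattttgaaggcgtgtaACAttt
snR31: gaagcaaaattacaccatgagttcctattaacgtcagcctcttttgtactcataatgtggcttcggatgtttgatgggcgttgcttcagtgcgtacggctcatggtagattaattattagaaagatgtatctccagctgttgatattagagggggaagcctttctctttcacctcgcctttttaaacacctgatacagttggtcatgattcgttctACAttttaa

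SnoRNA levels were higher in UV02_HG than in MF02. Levels are in FPKM, fragments per kilobase of gene, scaled to library size, and a ratio is log2 of (mean FPKM of UV02_HG + 1) over (mean FPKM of MF02 + 1). Of the 76 snoRNAs, 75 reached 1 FPKM in the mean of either strain; 73 of these were higher in UV02_HG by 2-fold or more and 0 were lower by as much. Of all 6291 features at that level, 14.7% were higher and 47.2% lower by that measure. The median ratio was 2.67 for the snoRNAs, with a range of 2.28 to 3.19 over the column comparisons, against -0.89 for all features. Both UV02_HG columns lay above both MF02 columns for 75 of 75 snoRNAs, against 20.7% of all features. The 2-fold difference held in all 4 column comparisons for 68 snoRNAs, against 8.68% of all features. The others were snR53, snR74, snR18, snR70, snR69, snR72 and snR58.

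The snoRNAs took 0.413% and 0.234% of the FPKM total in the MF02 columns and 1.05% and 1.15% in the UV02_HG columns. The strain shares of 0.338% and 1.10% stood 3.25-fold apart, with a range of 2.54 to 4.89 over the column comparisons. In whole reads, recovered from the FPKM values, the snoRNAs held 17149 and 7450 reads in MF02 and 75205 and 85111 in UV02_HG. These were 0.0880% and 0.628% of the recovered reads by strain, 7.13-fold apart. The recovered library totals were 12796339 and 15144991 reads in MF02 and 12507299 and 13040931 in UV02_HG, so depth did not follow the snoRNA counts. The median snoRNA had 68 and 38.5 reads in the MF02 columns and 399 and 397 in the UV02_HG columns. In these bulk samples, fewer cells of a kind and less RNA per cell cannot be told apart, and a share can shift because other RNAs shift.

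**Figure D1:**
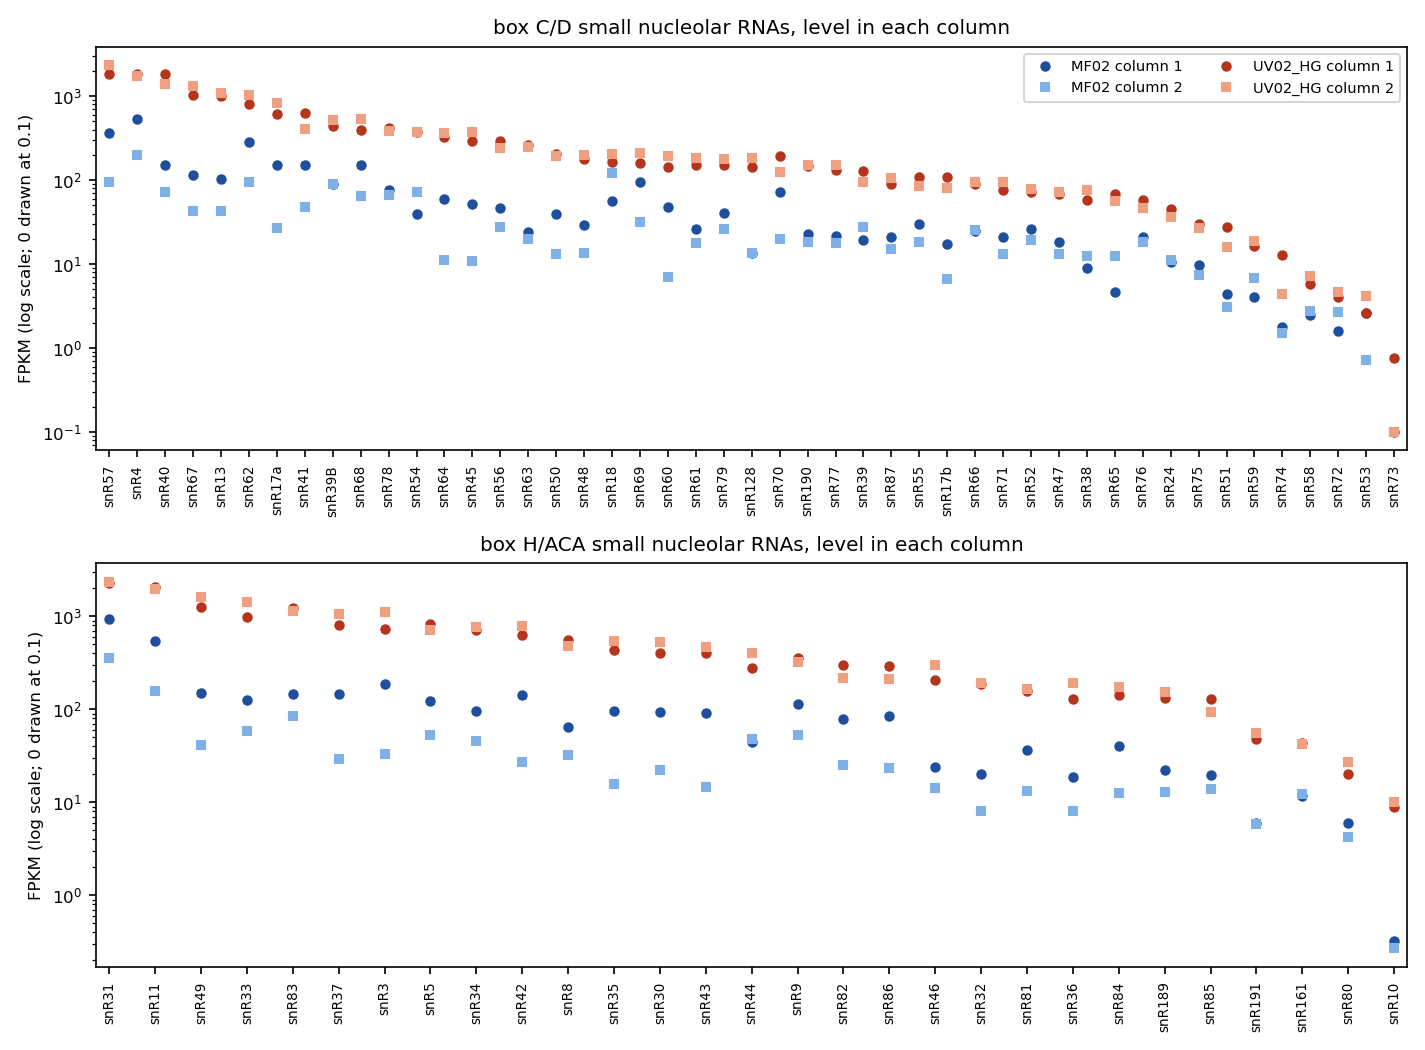
Level of each of the 76 snoRNAs in the 4 columns, in FPKM on a log scale with 0 drawn at 0.1, by class and in order of level; each point is a gene in a column. The UV02_HG points sit above the MF02 points for all 75 snoRNAs that reached 1 FPKM, though barely so for snR53, and MF02 column 2 lies below column 1 for 63 of them.

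The MF02 columns differed from each other, for snoRNAs and for short coding genes alike. For 37 of the 75 snoRNAs, MF02 column 1 exceeded column 2 by 2-fold or more, against 10.2% of all features and 100 of 271 protein-coding genes up to 300 nt. The median log2 ratio of column 2 over column 1 was -0.98 for the snoRNAs, -0.72 for these short coding genes and 0.44 for all features. Between the UV02_HG columns the median was 0.17. In the median, the difference between the MF02 columns moved with gene layout. It was -1.18 for snoRNAs with their own promoter, -0.37 for polycistronic members and 0.46 for intronic ones. Of the intronic ones, 7 of 8 were higher in column 2. What sets the columns apart was not tested. The order of levels was nonetheless much alike, with a Spearman correlation over 75 snoRNAs of 0.84 between the MF02 columns and 0.99 between the UV02_HG columns, as a description of genes that share libraries.

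Short genes in general were higher in UV02_HG, and this stands beside every ratio that follows. Among protein-coding genes up to 300 nt, 156 of 271 were higher and 14 lower by 2-fold or more, with a median ratio of 1.25. Each snoRNA was therefore also set against the protein-coding genes nearest to it in length. Relative to these, 71 of 75 snoRNAs stood above the coding median, 54 of them by at least 2-fold, and the median excess was 1.48 on the log2 scale. By the same measure, 134 of the 271 short coding genes stood above 0, with 34 at least 2-fold above and 62 at least 2-fold below. The coding median is drawn largely from these same genes, so their split about 0 was set in advance. For 39 short snoRNAs the nearest coding genes were the shortest in the annotation, 51 to 261 nt, so the match in length is loose there. How much of the strain difference goes with length alone was not tested. The series text speaks of mRNA profiles while the molecule label says total RNA, and whether poly(A) RNA was selected is not given in the sources used here. Of 14 ribosomal RNA rows, 13 were listed at 0 in every column, so the RNAs that the snoRNAs modify could not be set beside them.

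The length comparison is widest for the long snoRNAs. The longest is snR86, a box H/ACA guide of 1004 nt on chromosome XIII, with 85.8 and 23.5 FPKM in MF02 against 293 and 214 FPKM in UV02_HG. Its ratio of 2.19 compares with a median of -1.09 for coding genes of its length. The processing snoRNA snR30, with 606 nt on chromosome XII, had 94.1 and 22.2 FPKM in MF02 against 403 and 525 FPKM in UV02_HG, a ratio of 2.97 against a coding median of -0.04. The UV02_HG columns were the higher ones for both genes, without overlap. For snR84 (550 nt, chromosome IV) the values were 40.5 and 12.5 FPKM in MF02 against 142 and 175 FPKM in UV02_HG, a ratio of 2.54. The 3 snoRNAs of 500 nt or more had a median excess of 3.02 over coding genes of like length, larger than the 1.76 of the 33 from 150 nt to under 500 nt and the 1.02 of the 39 under 150 nt. In the same order, their median ratios without that comparison were 2.54, 3.01 and 2.27, so the ratio itself was not highest for the longest.

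**Figure D2:**
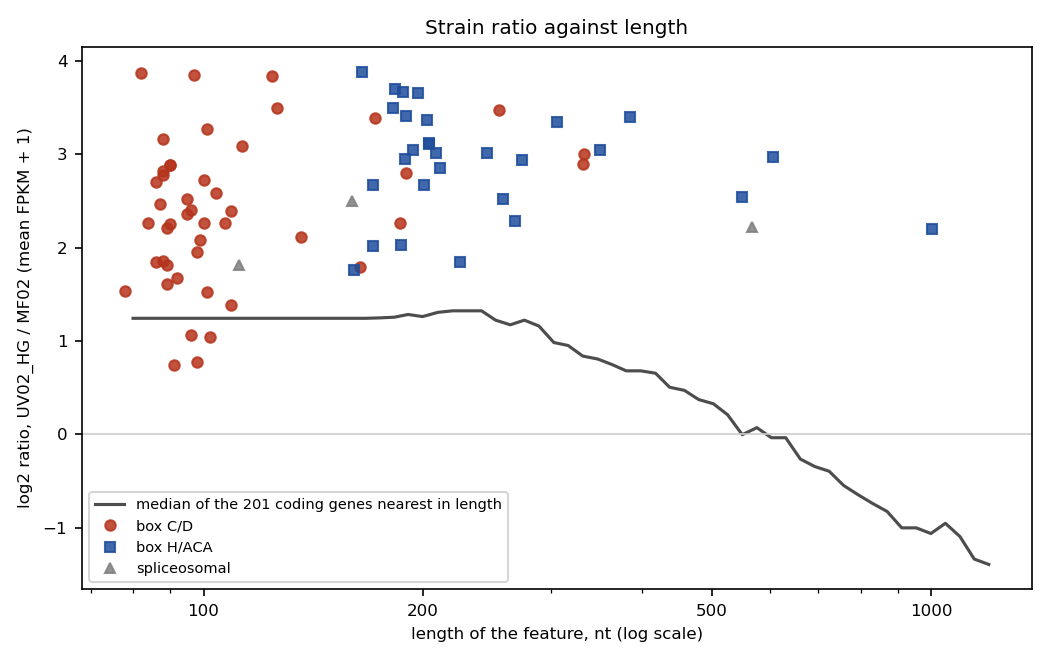
Log2 ratio of UV02_HG over MF02 against gene length in nt on a log scale; each point is a snR gene by class, and the line is the median of the protein-coding genes nearest in length. The line falls from 1.24 at the short end to below 0 for long genes, while the long snoRNAs stay between 2.19 and 2.97 from 550 nt up.

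Box H/ACA snoRNAs had higher ratios than box C/D snoRNAs. All 29 box H/ACA members were at least 2-fold higher in UV02_HG, in each of the 4 column comparisons, with a median ratio of 3.01 (range 2.45 to 3.76). Of 46 box C/D members at 1 FPKM, 44 were at least 2-fold higher, 39 in each column comparison, with a median of 2.37 (range 2.14 to 2.72). Class and length cannot be told apart over the whole set, since every box H/ACA gene is 150 nt or longer and 39 of the 46 box C/D genes are shorter. The 7 box C/D genes of 150 nt or longer had a median of 2.90, near that of box H/ACA, and the 39 shorter ones 2.27. Over 75 snoRNAs the Spearman correlation of length with the ratio was 0.37, and within the classes it was 0.20 over 46 box C/D and -0.16 over 29 box H/ACA members.

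Among box H/ACA members the ratio was highest for snR49. Its levels were 151 and 41.6 FPKM in MF02 against 1245 and 1627 FPKM in UV02_HG, a ratio of 3.88. The guide snR33 (chromosome III) followed with 125 and 59.2 FPKM in MF02 against 984 and 1436 FPKM in UV02_HG, a ratio of 3.70. Both were thus among the more abundant snoRNAs in UV02_HG and 1 MF02 column was well below the other. At lower levels, snR32 (chromosome VIII) had 20.0 and 8.08 FPKM against 186 and 194 FPKM, a ratio of 3.67. The values of snR46 (chromosome VII) were 23.8 and 14.4 FPKM against 207 and 298 FPKM, a ratio of 3.66, and those of snR36 (chromosome XV) 18.9 and 7.98 FPKM against 130 and 194 FPKM, a ratio of 3.50. High ratios therefore occurred at both high and low levels.

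At the other end of the class stood snR161 (chromosome II), with 11.6 and 12.3 FPKM in MF02 against 43.2 and 42.9 FPKM in UV02_HG. Its ratio of 1.76 had the narrow range of 1.72 to 1.81, since its columns agreed within each strain. The most abundant snoRNA in every column was snR31, at 942 and 353 FPKM in MF02 against 2297 and 2357 FPKM in UV02_HG, a ratio of 1.84. The other low ratios of the class were 2.02 for snR80 (chromosome V), 2.02 for snR9 (chromosome XV) and 2.19 for snR86. None of these 5 genes had overlapping strains.

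Among box C/D members the highest ratios were close to those of box H/ACA. The first gene of its precursor, snR67, had 115 and 42.7 FPKM in MF02 against 1028 and 1313 FPKM in UV02_HG, a ratio of 3.87. For snR40 the levels were 151 and 72.2 FPKM against 1831 and 1410 FPKM, a ratio of 3.85. For snR13 they were 102 and 42.6 FPKM against 1000.1 and 1087 FPKM, a ratio of 3.83. Even between their nearest columns the strains stood 8.84-fold apart for snR67, 9.30-fold for snR40 and 9.71-fold for snR13. The ratios of snR128 and snR63 (chromosome IV) were 3.49 and 3.47, and their MF02 columns lay close together, at 13.6 and 13.6 FPKM for snR128 and 24.2 and 19.9 FPKM for snR63.

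The lowest box C/D ratios rested mostly on few reads. The guide snR53 had 3 and 1 reads in MF02 and 3 and 5 in UV02_HG, and the ratio of its read shares was 2.19 with a 95% counting interval of 0.586 to 9.93. For snR72 the reads were 2 and 4 against 5 and 6, with a ratio of read shares of 2.01 and an interval of 0.680 to 6.60. For snR58 (chromosome XV) they were 3 and 4 against 7 and 9, a ratio of 2.50 with an interval of 0.973 to 7.19. A difference was not detectable at this depth for these 3 genes; such intervals cover counting error only. The intronic snR18 was different, with a ratio of 1.04 at well-covered levels of 55.9 and 122 FPKM in MF02 against 162 and 207 FPKM in UV02_HG. The ratio of snR76 was 1.39. In all, 9 snoRNAs had under 10 reads in 1 or more columns, and 22 had 100 reads or more in every column, of which 22 were at least 2-fold higher in UV02_HG. The snoRNA below 1 FPKM was snR73, with 0 and 0 reads in MF02 and 1 and 0 in UV02_HG, which gives no fold.

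**Figure D3:**
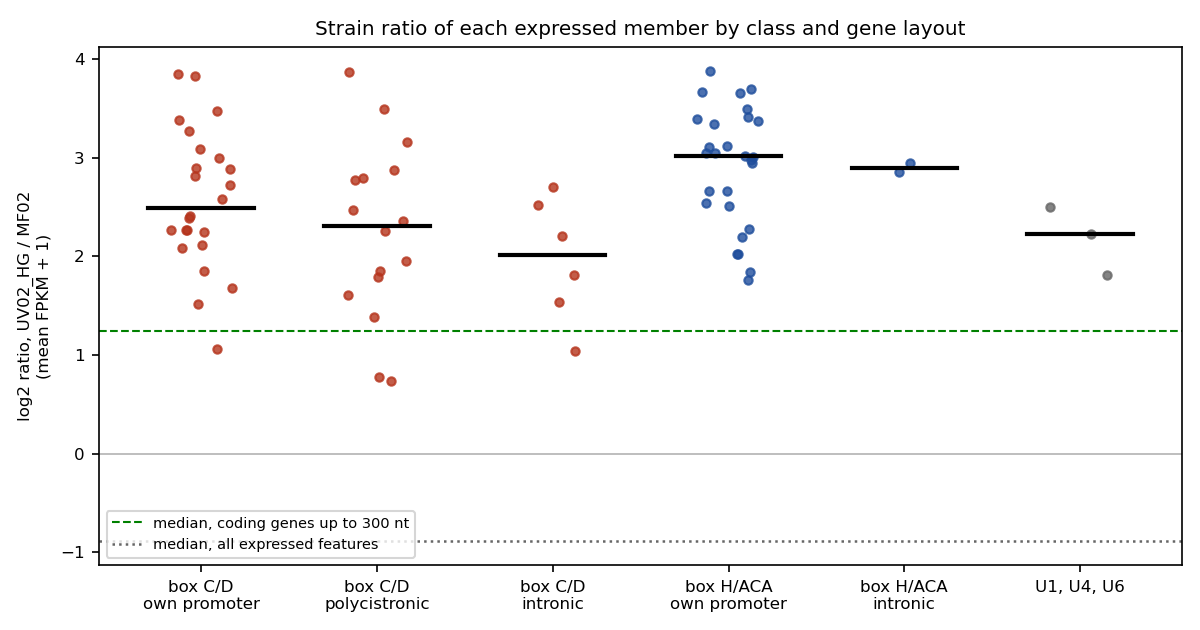
Log2 ratio of UV02_HG over MF02 for each snR gene, grouped by class and gene layout; each point is a gene, black bars are group medians, the dashed line is the median of coding genes up to 300 nt and the dotted line that of all features. Medians run from 2.01 for intronic box C/D to 3.02 for box H/ACA genes with their own promoter, and no group with more than 3 genes is free of overlap with the others.

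Grouped by role, the 6 snoRNAs classed with processing of the precursor ribosomal RNA had a median ratio of 2.99 (range 2.56 to 3.58). U3 pairs with the precursor to direct early cleavages and has 2 gene copies. Over the annotated genes with their introns, 81.6% of alignment columns were identical. The counted parts without introns were not aligned, and reads may be shared between the copies. Its copy snR17a (chromosome XV) had 151 and 27.0 FPKM in MF02 against 618 and 820 FPKM in UV02_HG, a ratio of 3.00, and snR17b (chromosome XVI) had 17.2 and 6.56 FPKM against 109 and 80.6 FPKM, a ratio of 2.90. The FPKM values of these copies gave whole reads at lengths of 333 and 332 nt, without the intron of the annotated genes. As assigned, the larger part of U3 was listed under snR17a in every column, and the ratio was much the same for both copies. U14 (snR128, chromosome X) and its neighbour snR190 had ratios of 3.49 and 2.79. The level of snR10 rested on 1 and 1 reads in MF02 and 27 and 32 in UV02_HG, a ratio of read shares of 32.3 with an interval of 8.54 to 273. Of its 245 nt, 88.2% are overlapped on the same strand by YGL088W, so reads from that stretch could fit either gene. YGL088W had under 1 FPKM in every column, and whether reads that fit both genes were discarded was not tested.

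The snoRNAs that guide acetylation of 18S ribosomal RNA by Kre33 were abundant to different degrees. For snR4 (chromosome V) the levels were 540 and 200.9 FPKM in MF02 against 1842 and 1731 FPKM in UV02_HG, a ratio of 2.27. For snR45 (chromosome XVI) they were 51.3 and 10.7 FPKM against 289 and 378 FPKM, a ratio of 3.38. Neither gene had overlapping strains. By the RNA they modify, the median ratios were 2.39 for 17 guides of 18S, 2.56 for 42 guides of 25S and 2.56 for 8 guides of both, a spread smaller than that between columns.

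Of the spliceosomal RNAs with the prefix, 3 of 5 reached 1 FPKM, with a median ratio of 2.22. U1 (snR19, 568 nt, chromosome XIV) had 160 and 22.7 FPKM in MF02 against 414 and 445 FPKM in UV02_HG, a ratio of 2.22. U4 (snR14, chromosome V) had 56.2 and 14.03 FPKM against 181 and 224 FPKM, a ratio of 2.50, and U6 (snR6, chromosome XII) had 7 and 0 reads against 10 and 22. The strains did not overlap for these RNAs, and MF02 column 2 was the lowest for each. Both forms of U5 were listed at 0 in every column; their genes are nested on one strand, and whether reads that fit both were discarded was not tested. U2, whose gene LSR1 lacks the prefix, had 116 and 18.2 FPKM in MF02 against 203 and 150 FPKM in UV02_HG, a ratio of 1.38.

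The 8 intronic snoRNAs were higher in UV02_HG although most of their host genes were not. All 8 lie inside an intron of the host on its strand in R64. Their median ratio was 2.36 (range 2.05 to 2.59) and 8 of 8 were at least 2-fold higher, 7 of them in each column comparison. Of the hosts, 5 of 8 had a ratio below 0 and 3 were lower by 2-fold or more, with a median ratio of -0.91. Among all features 47.2% were lower by as much, with a median of -0.89, so the hosts lay near all features. The snoRNA ratio exceeded that of the host in 8 of 8 pairs, with a median difference of 2.88 on the log2 scale, and in each column comparison in 7 of 8. After both were set against coding genes of like length, the snoRNA stood above the host in 7 of 8 pairs, with a median difference of 1.12. That difference ran from -2.08 for snR24 and ASC1 to 2.05 for snR59 and RPL7B, and was only 0.07 for snR191 and NOG2.

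The pair with the widest gap was snR54 and IMD4, which encodes an inosine monophosphate dehydrogenase. The snoRNA had 39.1 and 72.9 FPKM in MF02 against 371 and 371 FPKM in UV02_HG, a ratio of 2.71. The host had 101 and 307 FPKM in MF02 against 60.7 and 55.3 FPKM in UV02_HG, a ratio of -1.80. The snoRNA level was thus 27.5% of the host level in MF02 and 640% in UV02_HG. Relative to coding genes of like length, the difference of this pair was 1.66, against 4.50 without that comparison. The ribosomal protein gene RPL7B had 37.0 and 58.8 FPKM against 11.3 and 8.76 FPKM, a ratio of -2.15, and its snR59 had 4.01 and 6.77 FPKM against 16.4 and 18.7 FPKM, a ratio of 1.54. The reads of snR59 were 4 and 8 in MF02 and 16 and 19 in UV02_HG. RPL7A, the paralogue of RPL7B, holds the related snR39, with which snR59 shares 74.4% of alignment columns. The ratio was 2.21 (range 1.76 to 2.66) for snR39 and -0.86 (-1.19 to -0.58) for RPL7A, so the sign differed between snoRNA and host in both copies, except that RPL7A came to 0.03 after centring on the median feature and 0.09 with trimmed mean scaling.

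EFB1, the gene of an elongation factor, had 983 and 1279 FPKM in MF02 against 307 and 444 FPKM in UV02_HG, a ratio of -1.59, against 1.04 for its snR18. TEF4, of another elongation factor, had a ratio of -0.97 (range -1.58 to -0.26) against 2.52 (2.11 to 2.94) for its snR38. The remaining hosts had ratios above 0. RPS22B, of a ribosomal protein, had a ratio of 1.44 against 2.86 for snR44, and NOG2, of a ribosome assembly GTPase, 0.25 against 2.94 for snR191. ASC1, of a protein on the small ribosomal subunit, had 3428 and 1076 FPKM in MF02 against 10635 and 2704 FPKM in UV02_HG, so its strains overlapped; its ratio of 1.57 compares with 1.81 for snR24. The difference of that pair ran from -1.38 to 2.03 over the column comparisons.

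**Figure D4:**
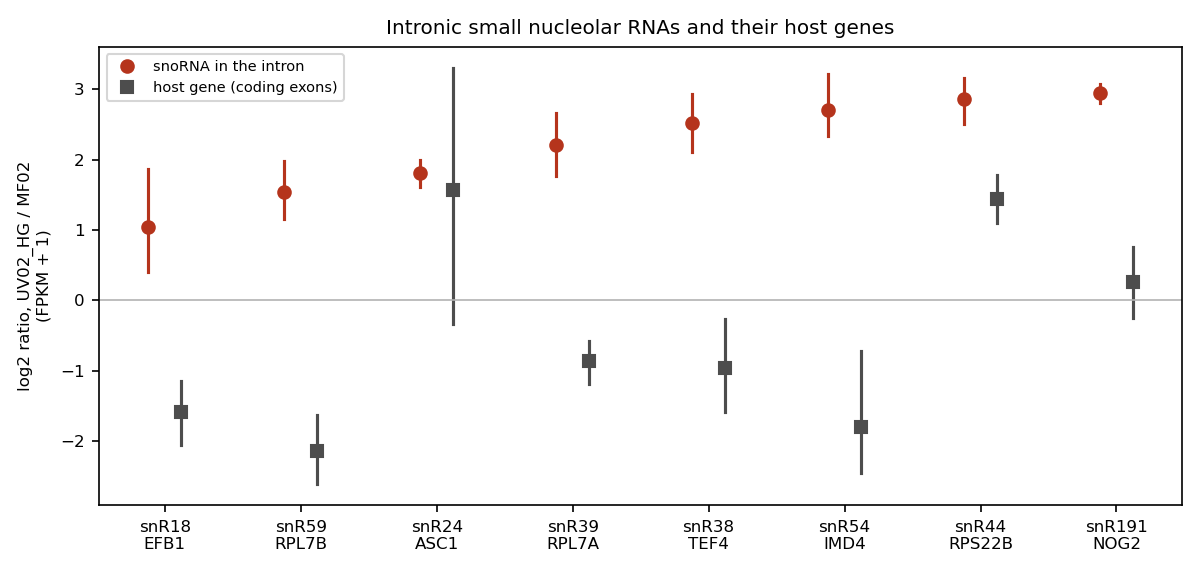
Log2 ratio of UV02_HG over MF02 for each intronic snoRNA and for the coding exons of its host gene; points use the mean of the columns and bars span the 4 column comparisons. The snoRNA lies above its host in 8 of 8 pairs, by 0.25 for snR24 and ASC1 and by 4.50 for snR54 and IMD4.

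The 17 polycistronic snoRNAs, all box C/D, come from 5 precursors whose members lie on one strand. Of the 16 at 1 FPKM, 14 were at least 2-fold higher in UV02_HG, 12 of them in each column comparison, with a median ratio of 2.31 (range 1.54 to 2.81). Members of a precursor share a transcript and are not independent. Their levels nevertheless differed widely within a precursor. On chromosome V, snR67 stood 47.8-fold above snR53 in MF02 and 342-fold in UV02_HG, with the few reads of snR53 given above. On chromosome XIII, snR78 stood 33.6-fold above snR72 in MF02 and 92.1-fold in UV02_HG.

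In the precursor of 7 on chromosome XIII, the first genes were the most abundant. The first, snR78, had 77.2 and 66.8 FPKM in MF02 against 423 and 385 FPKM in UV02_HG, a ratio of 2.47. The next, snR77, had 21.3 and 18.01 FPKM against 132 and 150 FPKM, a ratio of 2.78. The ratios of the later genes were 1.39 for snR76, 1.61 for snR75, 1.85 for snR74 and 0.78 for snR72. In MF02, snR74 had only 2 and 2 reads and snR72 only 2 and 4. The first gene held 58.4% and 58.3% of the summed FPKM in MF02 and 64.02% and 62.4% in UV02_HG. The MF02 columns of this precursor lay close together, with a median log2 ratio of column 2 over column 1 of -0.20. The median was -1.18 for snoRNAs with their own promoter, though among these snR161 had 11.6 and 12.3 FPKM. Over the other precursors it ran from -1.65 for that of snR41 to -0.17 for that of snR190.

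On chromosome XII, snR57 had 369 and 96.0 FPKM in MF02 against 1850 and 2331 FPKM in UV02_HG, a ratio of 3.16, and its neighbours snR55 and snR61 had ratios of 1.95 (range 1.45 to 2.51) and 2.88 (2.50 to 3.30). On chromosome XVI, snR41 had 153 and 48.0 FPKM against 628 and 409 FPKM, a ratio of 2.36, and snR70 and snR51 had ratios of 1.79 and 2.26. Here snR41 stood 26.9-fold above snR51 in MF02 and 23.9-fold in UV02_HG. The reads of snR51 were only 6 and 5 in MF02 against 37 and 22 in UV02_HG. The pair snR190 and snR128 on chromosome X was the most even, with snR190 1.51-fold higher in MF02 and snR128 1.10-fold higher in UV02_HG.

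**Figure D5:**
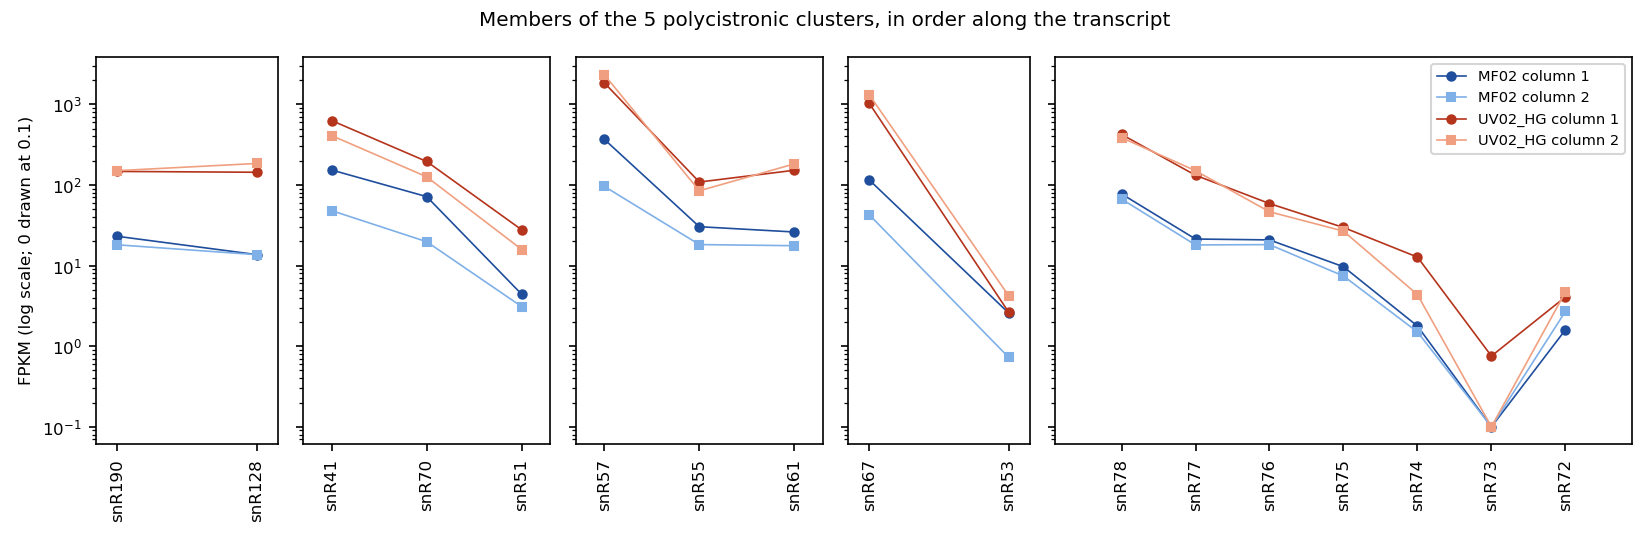
Levels of the polycistronic snoRNAs in the 4 columns, in FPKM on a log scale with 0 drawn at 0.1, in gene order within each of the 5 precursors; lines join the genes of a column. By the mean of the UV02_HG columns, the first gene has the highest level in 4 of 5 precursors. In the other, snR190 and snR128 are nearly level, at 147 and 143 FPKM in UV02_HG column 1 and 150 and 184 FPKM in column 2.

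Promoters of snoRNA genes are known to bind Tbf1, Reb1 and Rap1. The windows searched ran from 250 nt before to 50 nt after the annotated start, on both strands, for the 56 snoRNA genes with their own promoter or in the first place of a precursor. The Tbf1 letters ACCCTAA occurred in 5 of 56 windows (8.93%), against 2.12% of 6379 genes. The shorter letters CCCTAA, which lie within the former and were added after the data were seen, occurred in 14 of 56, against 7.20% of all genes. By class they were in 37.0% of box H/ACA and 13.8% of box C/D windows. The Reb1 letters TTACCCG occurred in 8 of 56 (14.3%), against 6.83%, and the Rap1 motif searched in 0 of 56, against 0.674%. The median ratio was 3.04 for the 14 genes with CCCTAA and 2.56 for the 42 without, a difference smaller than the range over columns. Of these 14 genes, 10 are box H/ACA, the class with the higher ratios, and motif was not separated from class. The letters also occurred for snR31, with a ratio of 1.84, and not for snR67 and snR40, with ratios of 3.87 and 3.85. The windows of snR49 (chromosome XIV) and snR13 (chromosome IV), picked as genes with high ratios that hold these letters, are shown from RefSeq R64 with CCCTAA in capitals.
snR49 promoter: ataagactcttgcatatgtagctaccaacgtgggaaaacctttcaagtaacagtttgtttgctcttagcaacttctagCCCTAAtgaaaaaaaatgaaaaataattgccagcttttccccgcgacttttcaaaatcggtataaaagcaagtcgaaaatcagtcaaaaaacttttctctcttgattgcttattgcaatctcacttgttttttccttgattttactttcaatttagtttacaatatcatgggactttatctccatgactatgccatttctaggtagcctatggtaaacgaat
snR13 promoter: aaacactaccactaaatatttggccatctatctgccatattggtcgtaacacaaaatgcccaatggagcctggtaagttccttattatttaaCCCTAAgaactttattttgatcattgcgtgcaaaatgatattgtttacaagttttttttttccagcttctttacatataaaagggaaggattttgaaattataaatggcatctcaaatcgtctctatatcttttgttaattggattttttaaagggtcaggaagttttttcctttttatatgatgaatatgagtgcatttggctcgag

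Genes of the proteins that work with snoRNAs are given beside all features, of which 47.2% were lower by 2-fold or more, with a median ratio of -0.89. Of the 4 box C/D core proteins, 0 were higher and 3 lower in UV02_HG by 2-fold or more, with a median ratio of -1.68. NOP1 had 128 and 412 FPKM in MF02 against 47.0 and 64.9 FPKM in UV02_HG, a ratio of -2.25, and NOP58 had 27.4 and 99.0 FPKM against 3.23 and 6.29 FPKM, a ratio of -3.48. For both genes, both MF02 columns lay above both UV02_HG columns, as they did for 3546 of all 6291 features. NOP56 and SNU13 had ratios of -1.11 and -0.66, and their strains overlapped, with ranges of -2.18 to 0.28 and -1.88 to 0.06 over the column comparisons. Of the 4 box H/ACA core proteins, 1 was higher and 1 lower, with a median of -0.01. NOP10, a short gene, had 1369 and 980 FPKM in MF02 against 3868 and 3710 FPKM in UV02_HG, a ratio of 1.69. CBF5 had 53.8 and 210 FPKM against 54.6 and 62.8 FPKM, a ratio of -1.16, with overlapping strains, and NHP2 and GAR1 had ratios of 0.72 and -0.74, with ranges of 0.02 to 1.30 and -1.67 to 0.20.

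Of 9 assembly factors, 1 was higher and 6 lower by 2-fold or more, with a median ratio of -1.34. The ratios were -3.15 (range -3.82 to -2.26) for BCD1, needed for box C/D assembly, -3.13 (-3.75 to -2.24) for NAF1, needed for box H/ACA assembly, -1.88 for the ATPase gene RVB2, and 1.74 for TAH1, a partner of PIH1, which itself had -1.77. Of 17 genes of snoRNA maturation and decay, 0 were higher and 8 lower, with a median of -0.92. Among them were NAB3, of transcription termination, at -3.27 (range -3.98 to -2.21), and the exonuclease genes RAT1 at -2.68 (-3.57 to -1.29) and XRN1 at -2.24 (-2.98 to -1.14). Of 5 transcription factor genes, 0 were higher and 4 lower, with TBF1 at 25.03 and 25.1 FPKM in MF02 against 7.48 and 5.45 FPKM in UV02_HG, a ratio of -1.80. Of 9 U3 protein genes, 0 were higher and 7 lower, including PWP2 at -2.61 and MPP10 at -2.60. Of 3 genes of related ribosomal RNA modification, 0 were higher and 2 lower, with KRE33 at -1.78 (range -2.50 to -0.37). The 2-fold fall held in all 4 column comparisons for 3 of the 9 U3 genes, 5 of the 17 maturation and decay genes and 4 of the 9 assembly factors. It did so for 1 of the 5 transcription factor genes and 1 of the 4 box C/D core proteins, against 1568 of 6291 features. Relative to coding genes of like length, the median was -1.29 for the box C/D core proteins, 0.24 for the box H/ACA core proteins and -0.53 for the assembly factors. By that measure it was -0.54 for the U3 genes, against -1.99 without it, and -0.08 for maturation and decay, against -0.92. For the transcription factor genes it was -0.12, against -1.64, and for the modification genes -0.17, against -1.22. Nothing particular to these lists is read from their counts.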

How the data were processed

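The authors deposited FPKM values for 7163 features, per the file headers in 2 columns per strain; 4 rows without values were not analysed here. Bowtie2 2.2.3 and TopHat2 2.0.12 were used along with HTSeq 0.6.1, per the submitters' processing notes. Trizol extraction and a NEBNext Ultra DNA kit are named in the labels' protocols. The build, annotation and strand setting of the counting are not stated, so no coordinates are printed, and overlapping or antisense genes cannot be told apart. Library totals were recovered as those that make FPKM times R64 length a whole number of reads within 0.02; 79 of 81 snR rows were whole at R64 lengths, and the U3 copies at lengths found from the values. Columns were averaged per strain, a pseudocount of 1 was added, and a feature was kept if the mean of either strain reached 1 FPKM. With 1 sample per strain no p-value was computed. A 2-fold difference served for counts. Ratios understate differences of weakly expressed genes. Counting intervals are exact, at 95%.

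The members, classes and gene lists were chosen with earlier results of these data known. Genes named are, per class, the 5 with the highest and the 5 with the lowest ratio, all intronic, processing and acetylation members, all spliceosomal rows, polycistronic members, rows at 0, up to 4 of each other list by size of ratio, and all hosts; TAH1, LSR1, snR84 and snR69 were added after their values were seen. Alternatives covered the pseudocount, the filter, 4 scalings, single columns, thresholds, gene length and read depth. Scripts were tested on simulated data. Values were computed in Python 3.11.15 with pandas 2.3.3, numpy 2.4.6 and scipy 1.17.1, sequences were read with biopython 1.88 and figures drawn with matplotlib 3.10.9.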

Additional observations from a re-analysis of the deposited data

How the results depend on the processing

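No paired analysis was possible because there was 1 sample per strain. The snoRNAs stayed higher in UV02_HG in their median under every alternative run. The median ratio of 2.67 was 1.57 with columns rescaled to equal FPKM totals, 3.31 with upper quartile scaling, 3.56 after centring on the median feature, 3.59 with trimmed mean scaling and 1.48 relative to coding genes of like length; in that order the median log2 ratio of box C/D was 1.29, 3.00, 3.26, 3.31 and 1.13, the median log2 ratio of intronic members 1.202, 3.03, 3.25, 3.28 and 1.12, the median log2 ratio of polycistronic members 1.26, 2.91, 3.20, 3.19 and 1.07, and, as the middle of all 8 values, the medians of the other gene lists -2.19, -0.63, -0.39, -0.43 and -0.15 against -1.28 as reported. The median log2 ratio of box H/ACA was 1.99 with equal totals, 3.90 after centring, 3.92 with trimmed mean scaling and 1.82 relative to length. These scalings move the median of all features by -0.93 for equal totals, 0.63 for the upper quartile, 0.89 for centring and 0.87 for the trimmed mean. Equal totals left 56 snoRNAs at least 2-fold higher and 2 below 0; the 4-fold threshold left 59. With only members of 100 reads or more in every column, the count was 22, since fewer members entered, and the medians were 2.86 for intronic and 3.16 for polycistronic members. Over single columns and pairs of columns, the medians ran from 2.28 to 3.19 for all snoRNAs, 2.13 to 2.72 for box C/D, 2.45 to 3.79 for box H/ACA, 2.05 to 2.61 for intronic and 1.54 to 2.81 for polycistronic members, and -1.62 to -0.62 for the other lists; box C/D minus box H/ACA median ran from -1.17 to -0.28, the fold of the FPKM share from 2.54 to 4.89 and the count from 71 to 73. MF02 column 1 gave a lower median than column 2 for all snoRNAs, and a higher one for the intronic members (2.61 against 2.15). Among genes at least 2-fold apart, the sign turned for snR18 (-0.16 with equal totals, -0.20 relative to length), snR58 (-0.18 relative to length), ASC1 (-0.34 for UV02_HG column 2 against MF02 column 1, up to 3.30 over pairs of columns), CBF5 (0.12 against MF02 column 1, 0.02 and 0.22 for the UV02_HG columns each against it, down to -1.93 over pairs, 0.20 relative to length), NOP56 (0.28 for column 1 against column 1, down to -2.18 over pairs, 0.34 relative to length) and REB1 (0.13 relative to length). Among the other genes named it turned relative to length for snR53 (-0.50), snR72 (-0.47) and TEF4 (0.34), with equal totals for snR72 (-0.09), NHP2 (-0.43) and NOG2 (-0.87), with centring and trimmed mean scaling for RPL7A (0.03, 0.09), GAR1 (0.15, 0.21) and SNU13 (0.24, 0.30), with the upper quartile for SNU13 (0.04), and over columns for NOG2 (to -0.25), GAR1 (to 0.20) and SNU13 (to 0.06). The cause was not tested. Comparisons of column pairs and the letters CCCTAA were added after the data were seen.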
